A study of Mus musculus with 6 samples.

Results

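The core circadian clock genes were followed in αTC1 cells, a line grown from a mouse glucagonoma, a tumour of the pancreatic α cells that make glucagon. They are the 10 genes Clock, Arntl, Per1, Per2, Per3, Cry1, Cry2, Nr1d1, Nr1d2 and Dbp, taken by symbol from the 55487 genes of the deposited table. The data are 6 RNA sequencing libraries: G786-1089 was given to the cells of 3, and the solvent DMSO to those of the other 3. The series' design text names the treatment an inhibitor of SMNDC1, a splicing factor with a Tudor domain, while sample labels give only the code, and G786-1089 is called the inhibitor here. All 6 libraries come from the same cell line, and their column names all begin with WT. The sample labels give no added genotype, dose, treatment time or sampling hour. The libraries are called inhibitor A, B and C and DMSO A, B and C, after the letters of their columns. The genes were picked as members of the clock because genes of the oxygen response and the clock repressor Bhlhe40 had risen in the same comparison. Because the same comparison guided the choice, its calls on these genes are given as a description and support nothing further.

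The mammalian clock is a feedback loop of transcription. CLOCK and BMAL1, the protein of Arntl, bind E-box motifs and switch on the Per and Cry genes, whose proteins return to the nucleus and repress that activity. A further loop runs through REV-ERBα and REV-ERBβ, the proteins of Nr1d1 and Nr1d2, which repress Arntl, while ROR proteins compete for the same elements and activate it. Dbp is a direct target of CLOCK and BMAL1 and passes the rhythm on to output genes through D-box motifs. Clocks of cultured cells run in each cell and drift apart unless they are set together. With no sampling hour in the labels, a shift of the clock's phase and a change of its mean level cannot be told apart.

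Of the 10 genes, 2 passed the filter used here, both with higher levels under the inhibitor. The filter asked for an adjusted p-value of at most 0.1 in edgeR's quasi-likelihood test and a log2 fold change of at least 1, up or down. The study set the same limits on its DESeq2 analysis, to narrow its list of splicing events. A call here is therefore not the study's own call. Nr1d1, encoding REV-ERBα, was 3.87-fold higher, with a log2 fold change of 1.95 ± 0.36 (SE, n = 3 per group). Cry2, encoding a cryptochrome that represses CLOCK and BMAL1, was 2.01-fold higher, with a log2 fold change of 1.005 ± 0.22. Of all 15082 genes tested, 10.4% passed the filter, 6.25% with higher and 4.16% with lower levels under the inhibitor. The other 8 clock genes had groups that overlapped.

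The promoters of these 2 genes are shown first, together with those of Cry1 and Per1, which hold the E-box found among the clock genes. They come from RefSeq on GRCm38.p6, run 5′ to 3′ on the strand of the gene, and span 250 bases before to 50 after an annotated start. Capitals mark CACGTG (the E-box) and CACGTT (an E′-box), the latter also where it reads AACGTG on the opposite strand, and every other ACGTG. This last, the core motif of hypoxia-inducible factors, lies inside CACGTG and overlaps CACGTT. The letters are a description of these windows and not evidence of binding.
Nr1d1, chr11:98775328-98775627, minus strand: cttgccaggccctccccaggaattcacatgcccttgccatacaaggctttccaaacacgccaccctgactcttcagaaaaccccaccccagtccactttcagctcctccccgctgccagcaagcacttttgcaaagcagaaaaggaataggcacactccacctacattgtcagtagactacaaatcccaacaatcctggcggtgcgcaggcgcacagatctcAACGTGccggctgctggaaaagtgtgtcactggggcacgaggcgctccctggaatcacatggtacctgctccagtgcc
Cry2, chr2:92434020-92434319, minus strand: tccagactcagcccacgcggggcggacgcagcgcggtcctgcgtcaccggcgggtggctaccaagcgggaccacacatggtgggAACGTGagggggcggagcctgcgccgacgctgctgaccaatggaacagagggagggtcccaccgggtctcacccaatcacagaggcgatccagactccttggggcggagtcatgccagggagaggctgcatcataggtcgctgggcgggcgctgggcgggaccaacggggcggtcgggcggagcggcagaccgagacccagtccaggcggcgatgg
Cry1, chr10:85185005-85185304, minus strand: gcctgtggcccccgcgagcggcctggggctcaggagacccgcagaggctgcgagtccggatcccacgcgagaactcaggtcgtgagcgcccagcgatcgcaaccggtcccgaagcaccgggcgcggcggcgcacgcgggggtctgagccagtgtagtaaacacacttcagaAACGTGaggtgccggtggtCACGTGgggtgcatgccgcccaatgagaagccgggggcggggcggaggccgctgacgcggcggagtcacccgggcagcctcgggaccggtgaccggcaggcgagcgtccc
Per1, upstream start, chr11:69098699-69098998, plus strand: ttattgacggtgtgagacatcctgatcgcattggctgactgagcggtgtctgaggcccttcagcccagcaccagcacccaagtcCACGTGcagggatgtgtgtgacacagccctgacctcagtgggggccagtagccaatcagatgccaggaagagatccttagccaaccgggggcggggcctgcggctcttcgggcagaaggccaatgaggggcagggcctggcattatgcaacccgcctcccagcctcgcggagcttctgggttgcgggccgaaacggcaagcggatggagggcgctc

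Both genes that passed the filter held an E′-box and no E-box in this window. The E′-box of Nr1d1 lay at −28 to −23 from the start and that of Cry2 at −166 to −161. Cry1, whose level was close to the same in both treatments, held an E-box at −60 to −55 as well as an E′-box at −79 to −74. The upstream start of Per1 had an E-box at −166 to −161.

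The RefSeq table held promoters for 9 of the 10 genes, 13 promoters in all, with none listed for Per2. All motifs were searched on both strands. Of the 27025 genes in the table, with any of their promoters counted, CACGTG was found in 8.09%, against 2 of the 9 clock genes. CACGTT was found in 3 of the 9, Cry1, Cry2 and Nr1d1, and in 5.44% of all genes. ACGTG was found in 5, Per1, Cry1, Cry2, Nr1d1 and Dbp, and in 21.8% of all genes. In Dbp, ACGTG stood outside both E-box forms, at −227 to −223. All these motifs hold the pair CG. The promoters of the clock genes were 56.3% to 76.7% G or C, apart from a downstream start of Clock at 47.0%. The median over all promoters was 52.67%, and the part of base composition in these shares was not tested.

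The D-box TTATGNAA, the motif read by DBP and its relatives, was found in Per1 and Per3 and in 3.99% of all genes. Its palindromic form TTACGTAA was found in none of the 9 and in 0.126% of all genes. The REV-ERB and ROR element, searched as TAGGTCA or TGGGTCA, was found in Arntl only among the 9 genes, at 30 to 36 after a start, and in 7.35% of all genes. The cAMP response element TGACGTCA was found in none of them and in 2.03% of all genes, and its shorter form TGACG in Per1, Cry1 and Cry2 and in 23.0%. Clock and Nr1d2 held none of these motifs in their windows.

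**Figure D1:**
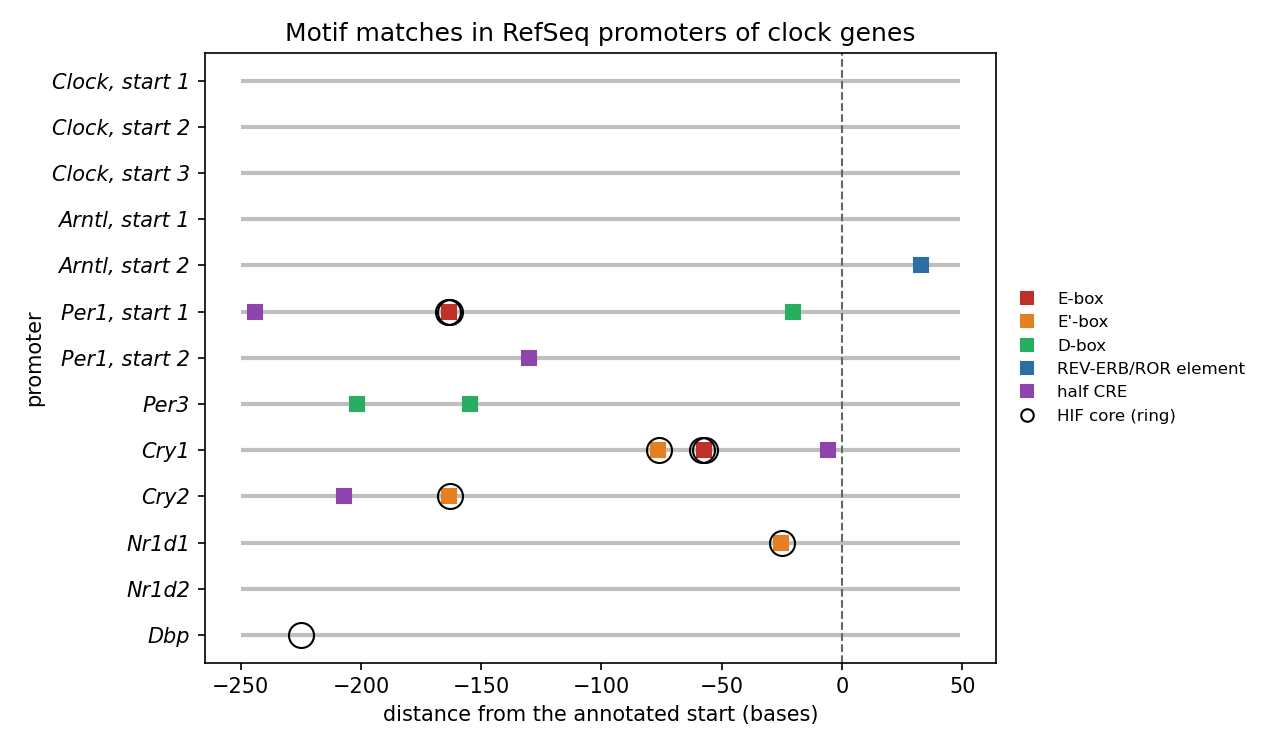
Motif matches in the 13 RefSeq promoters of 9 clock genes, drawn by distance in bases from the annotated start (dashed line). Squares mark motifs by colour and rings mark ACGTG; Cry2 and Nr1d1 each show 1 E′-box with a ring, and Cry1 shows an E-box and an E′-box.

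The libraries held 59070705 to 69480568 counts with DMSO and 70150880 to 94747943 with the inhibitor, so every inhibitor library was the deeper. The label of the cells was checked against marker genes. Of 8 α cell markers, Gcg, the glucagon gene, led with an FPKM (fragments scaled to transcript length and library size) of 17086 to 19365 with DMSO and 2401 to 3024 with the inhibitor. The summed level of the list, nearly all of it Gcg, ranged from 17608 to 19879 with DMSO and from 2719 to 3319 with the inhibitor. Of the 7 markers tested, 4 had every inhibitor library below every DMSO library, as had 18.6% of all tested genes. The groups overlapped for the other 3. Irx1 and Slc7a2 had log2 fold changes above 0, at 1.01 ± 0.62 and 0.57 ± 0.30 (SE). In bulk RNA, fewer cells of a type and less RNA per cell cannot be told apart. Of 7 β cell markers, Ins1 and Pdx1 were listed at 0 in every library, and the sum ranged from 3.64 to 4.82 with DMSO and from 1.42 to 3.91 with the inhibitor. The δ and PP cell markers were at 0. Of 3 fibroblast markers, Dcn was at 0 and the sum ranged from 0.203 to 0.842 with DMSO and from 0 to 0.0402 with the inhibitor. Of 2 endothelial markers Cdh5 was at 0 and the sum reached 0.250 with the inhibitor and 0 with DMSO, and the leukocyte marker Ptprc reached 0.0740 with the inhibitor and 0 with DMSO. Of 2 macrophage markers Adgre1 was at 0 and the sum ranged from 4.23 to 6.25 with DMSO and from 5.85 to 13.8 with the inhibitor. The part of depth and of these markers in the results was not tested. Smndc1, the gene of the inhibited protein, had FPKM values of 1.78, 0.528 and 2.59 with the inhibitor and 1.20, 0.736 and 0.812 with DMSO, and its groups overlapped.

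Before the treatments are compared, the order of the clock genes under DMSO sets their scale. Levels between genes are compared as FPKM, which is scaled to transcript length. How the deposited values were computed is not given, so the order holds only on that scale. Cry1 (8.22 ± 1.72, SD, n = 3), Cry2 (6.87 ± 1.89) and Arntl (4.23 ± 1.13) were highest, and neighbours among them overlapped. Nr1d2 (2.63 ± 0.825), Dbp (2.55 ± 1.48), Nr1d1 (2.04 ± 0.761) and Per3 (1.63 ± 0.843) came next, again with overlap between neighbours. Clock (0.488 ± 0.208), Per2 (0.389 ± 0.137) and Per1 (0.171 ± 0.184) were lowest and overlapped as well. Only the steps from Arntl to Nr1d2 and from Per3 to Clock separated neighbours without overlap. Among the tested genes, whose median FPKM was 2.83 with DMSO, the clock genes stood between the 9.22 percentile for Per1 and the 66.9 percentile for Cry1.

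Under the inhibitor Cry2 stood at the head of this order, and its step down to Cry1 was the only one between neighbours without overlap. Nr1d1 took the place after Cry1, ahead of Arntl, Nr1d2, Dbp, Per3, Clock, Per2 and Per1. The percentile of Nr1d1 among all tested genes was 44.5 with DMSO and 65.1 with the inhibitor, and that of Cry2 was 64.2 and 73.3. Cry1 stood at 66.9 and 65.7. The other 7 genes had percentiles of 9.22 to 56.6 with DMSO and 17.7 to 60.1 with the inhibitor.

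**Figure D2:**
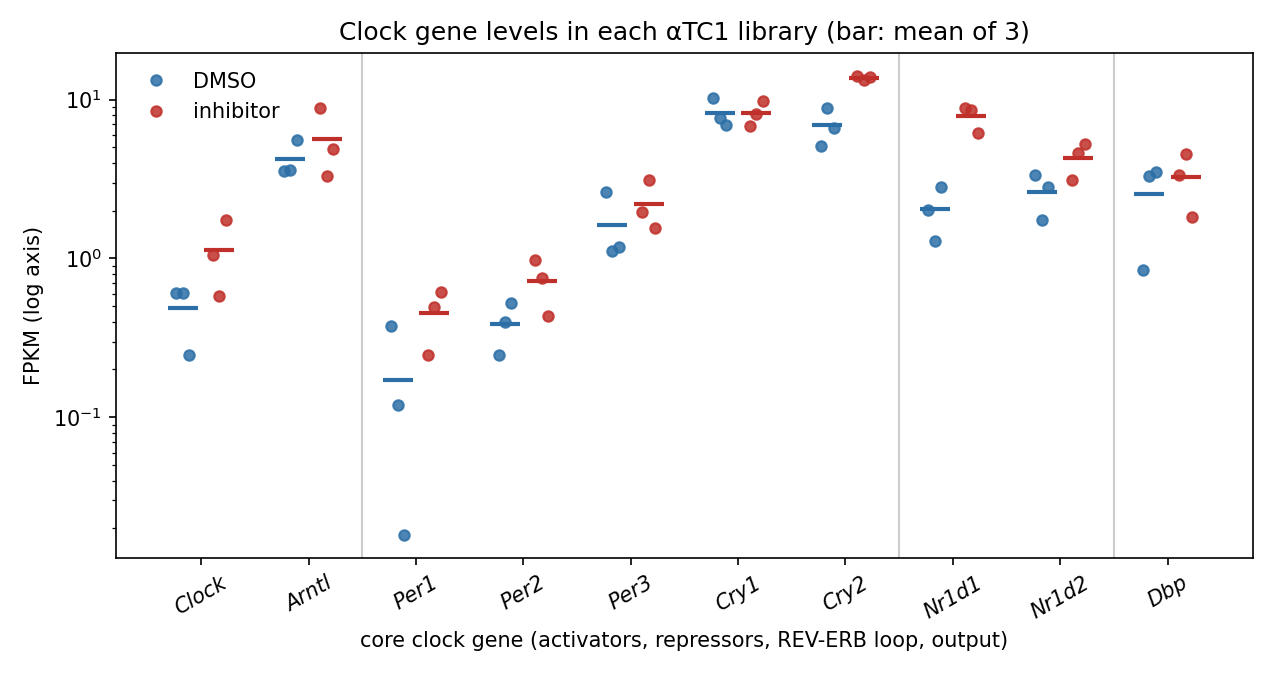
FPKM of the 10 clock genes (log axis) in each of the 3 DMSO (blue) and 3 inhibitor (red) libraries, with bars at the means and genes set out by role. The inhibitor points lie above all DMSO points for Cry2 and Nr1d1, and the groups overlap for the other 8 genes.

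Clock and Arntl encode the activating pair. Clock had FPKM values of 1.06, 0.579 and 1.74 in inhibitor A, B and C and 0.608, 0.608 and 0.248 in DMSO A, B and C. Inhibitor B fell among the DMSO libraries, so the groups overlapped, at a log2 fold change of 1.21 ± 0.54 (SE). Arntl had 8.87, 3.32 and 4.86 with the inhibitor and 3.54, 3.61 and 5.53 with DMSO. Its highest and its lowest value were both in inhibitor libraries, and its log2 fold change was 0.43 ± 0.41. Without inhibitor A that value was −0.04, so the direction for Arntl rested on this library. The activator partners Npas2 and Arntl2, which can stand in for Clock and Arntl, had at most 2 counts in any library and were not tested.

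The Per genes encode the period proteins, repressors that act with the cryptochromes. Per1 had FPKM values of 0.247, 0.491 and 0.614 with the inhibitor and 0.376, 0.120 and 0.0181 with DMSO. DMSO A lay above inhibitor A, and the DMSO values ranged from 6 counts in DMSO C to 140 in DMSO A, the widest relative spread of any clock gene (coefficient of variation 107%). Its log2 fold change was 1.40 ± 1.04, and 2.69 without DMSO A. Per2 had 0.982, 0.749 and 0.435 with the inhibitor and 0.248, 0.397 and 0.523 with DMSO, where inhibitor C lay below DMSO C. Its log2 fold change was 0.89 ± 0.52. Per3, the period gene least needed for the loop, had 1.96, 3.11 and 1.55 with the inhibitor and 2.61, 1.11 and 1.18 with DMSO. DMSO A lay above 2 of the inhibitor libraries, and the log2 fold change was 0.43 ± 0.45. The summed FPKM of the 3 genes was 3.19, 4.35 and 2.59 with the inhibitor and 3.23, 1.63 and 1.72 with DMSO, and this sum overlapped too.

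The cryptochrome genes differed from each other. Cry1 had FPKM values of 6.86, 8.14 and 9.74 with the inhibitor and 10.2, 7.61 and 6.89 with DMSO, so the groups spanned nearly the same range. The log2 fold change of Cry1 was 0.01 ± 0.23, and its sign changed in 3 of 15 alternative settings. Cry2 (ENSMUSG00000068742, chr2:92403646-92434043, GRCm38) had 14.1, 13.3 and 13.9 with the inhibitor and 5.14, 8.89 and 6.58 with DMSO. The lowest inhibitor library lay above the highest DMSO library, and the inhibitor libraries were close together, with a coefficient of variation of 3.09% against 27.6% with DMSO. Cry2 stood at the limit of the filter. Its log2 fold change fell below 1 without inhibitor A (0.99), without inhibitor C (0.995), without DMSO A (0.83) or without DMSO C (0.97), and it stayed between 0.83 and 1.23 in all 15 alternatives. Exons of Cry2 share 3.43% of their bases with the antisense gene D930015M05Rik, which had 0 to 45 counts in the inhibitor libraries and 5 to 20 with DMSO, against 1477 to 6254 for Cry2.

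The balance of the cryptochromes was also read within each library, where scaling between libraries plays no part. The ratio of Cry2 to Cry1 FPKM was 2.05, 1.63 and 1.43 with the inhibitor and 0.505, 1.17 and 0.955 with DMSO. All 3 inhibitor libraries held more Cry2 than Cry1, as did DMSO B, and the log2 ratio differed by 1.03 between the group means. The summed FPKM of both genes was 20.9, 21.4 and 23.7 with the inhibitor and 15.3, 16.5 and 13.5 with DMSO, without overlap. This ratio and the sums of gene families were chosen after the values had been seen.

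Nr1d1 and Nr1d2 form the REV-ERB loop. Nr1d1 (ENSMUSG00000020889, chr11:98767932-98775333, GRCm38) had FPKM values of 8.85, 8.60 and 6.14 with the inhibitor and 2.03, 1.28 and 2.80 with DMSO. The lowest inhibitor library was more than 2-fold above the highest DMSO library. The gene passed the filter in all 15 alternatives, with log2 fold changes from 1.56 to 2.25. Exons of Nr1d1 share 9.67% of their bases with Thra, the thyroid hormone receptor gene on the opposite strand, and counting ignored strand. Thra itself had FPKM values of 1.21, 1.65 and 2.37 with the inhibitor and 2.22, 0.625 and 2.39 with DMSO, at a log2 fold change of 0.00 ± 0.58. The groups of Thra overlapped, and the part of shared bases in the counts of Nr1d1 was not tested.

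Nr1d2, encoding REV-ERBβ, had FPKM values of 3.10, 4.60 and 5.24 with the inhibitor and 3.36, 1.74 and 2.80 with DMSO. Inhibitor A lay below DMSO A, and the log2 fold change was 0.72 ± 0.33. A processed pseudogene, named Gm5827 in the deposited table, matches Nr1d2 over 1385 bases at 96.1% identity, so reads could be split between them. It had 8 to 31 counts with the inhibitor and 12 to 18 with DMSO, against 574 to 2327 for Nr1d2. The summed FPKM of the REV-ERB genes was 11.9, 13.2 and 11.4 with the inhibitor and 5.39, 3.02 and 5.61 with DMSO, a ratio of means of 2.61.

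REV-ERB proteins repress Arntl, and the ratio of Nr1d1 to Arntl FPKM was therefore taken within each library. It was 0.997, 2.59 and 1.26 with the inhibitor and 0.572, 0.355 and 0.506 with DMSO. Every inhibitor library lay above every DMSO library, and the log2 ratio differed by 1.66 between the group means. Arntl itself overlapped between the groups.

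**Figure D3:**
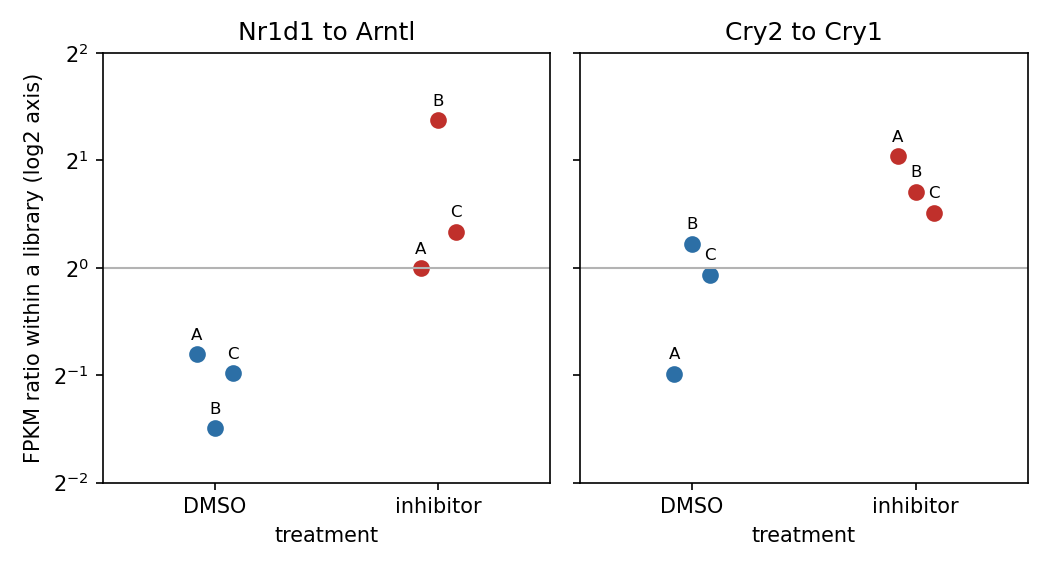
FPKM ratio within each library (log2 axis) of Nr1d1 to Arntl (left) and Cry2 to Cry1 (right), with points lettered by library. In both panels the 3 inhibitor libraries lie above the 3 DMSO libraries, and the grey line marks equal levels.

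Dbp, the output gene, had FPKM values of 3.36, 4.55 and 1.82 with the inhibitor and 0.846, 3.31 and 3.50 with DMSO. Inhibitor C lay below 2 DMSO libraries, and the log2 fold change was 0.35 ± 0.63. Without DMSO A it was −0.07, so the direction for Dbp rested on that library. Dbp shares 29.3% of its exon bases with Sphk2, a lipid kinase gene on the opposite strand, and reads of the pair cannot be told apart there. Sphk2 had a log2 fold change of 0.16 ± 0.61 and its groups overlapped as well. Tef and Hlf, the relatives of Dbp that bind the same motif, had log2 fold changes of 0.44 ± 0.40 and 0.70 ± 0.48. Tef overlapped between the groups, while for Hlf every inhibitor library lay above every DMSO library, as for 18.1% of all tested genes.

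Over the list, the fitted log2 fold change was above 0 for all 10 clock genes, at a median of 0.80, against 51.8% above 0 and a median of 0.04 over all tested genes. Arntl, Cry1 and Dbp lost that sign in some alternatives, as given above. An adjusted p-value under 0.05, with no limit on size, was met by Cry2 and Nr1d1, as it was by 14.8% of all tested genes. The FPKM values did not overlap, with the inhibitor above, for these 2 genes and for 18.1% of all tested genes. The reverse order without overlap, with the inhibitor below, was seen in 0 clock genes and in 18.6% of all. No library was highest or lowest in its group for all members. DMSO A was the most extreme, being the highest DMSO library for 5 genes (Clock, Per1, Per3, Cry1 and Nr1d2) and the lowest for 4 (Arntl, Per2, Cry2 and Dbp).

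**Figure D4:**
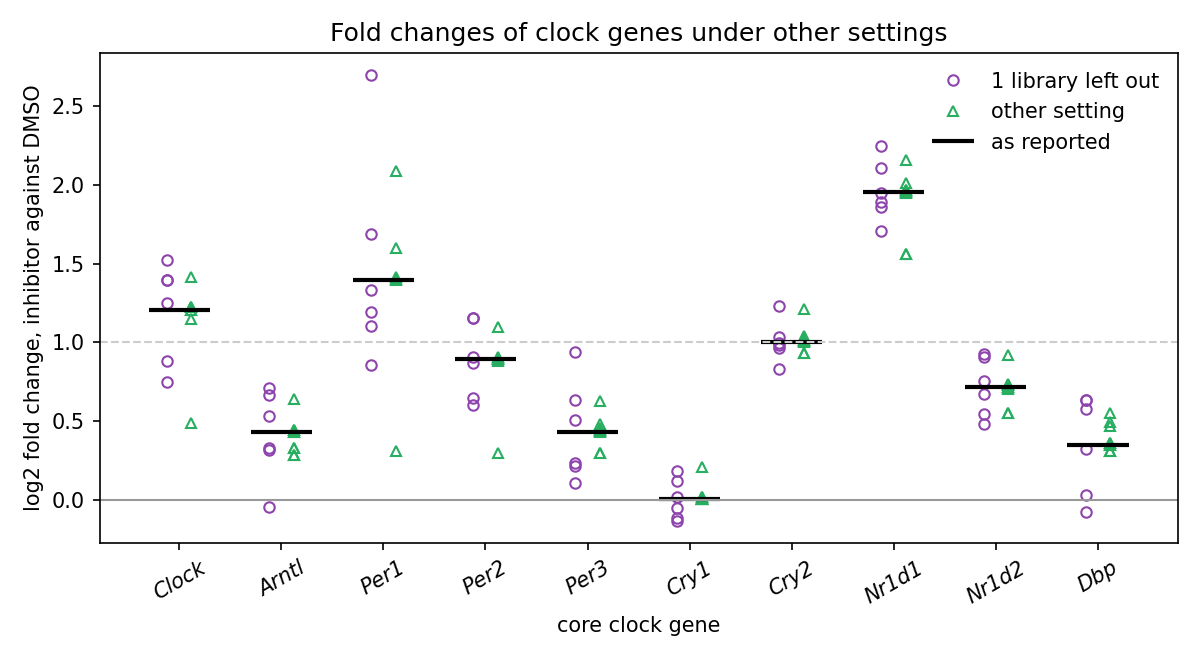
log2 fold change (inhibitor against DMSO) of each clock gene as reported (black bar), with 1 library left out (purple circles) and under other settings (green triangles). Nr1d1 stays above 1 throughout, Cry2 lies on both sides of 1, and Arntl, Cry1 and Dbp reach below 0 when 1 library is left out.

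The partners of these genes were described from a list of 33 other clock genes, of which 30 could be tested. Among them 5 passed the filter with higher levels and 0 with lower levels, and the median log2 fold change of the list was 0.50. Without Bhlhe40, whose rise had led to the choice of the clock genes, 4 of 29 passed, at a median of 0.45, beside 10.4% and 0.04 over all tested genes. Over all 30 genes, Bhlhe40 included, DESeq2 gave 5 higher and 0 lower, beside 1498 higher and 1020 lower among all 16373 genes it tested. Over the same 30 genes, edgeR gave 11 higher and 3 lower at an unadjusted p-value under 0.05. That level was met by 14.6% of all tested genes in the higher and 13.5% in the lower direction. With the column letter as a replicate block, 4 of the 30 passed, Sirt1 being lost. Both bHLH repressors of the list rose. Bhlhe40 (DEC1), which competes with CLOCK and BMAL1 for E-boxes, had FPKM values of 57.3, 48.4 and 60.3 with the inhibitor and 3.95, 2.36 and 3.81 with DMSO, at a log2 fold change of 4.04 ± 0.24. Bhlhe41 (DEC2), its paralog, had 11.7, 11.9 and 15.6 with the inhibitor and 2.22, 1.67 and 2.45 with DMSO, at 2.63 ± 0.22. The groups of both genes lay well apart. Bhlhe40 shares 3.73% and Bhlhe41 13.7% of exon bases with antisense genes.

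Ciart (CHRONO), a further repressor of CLOCK and BMAL1, had FPKM values of 13.9, 8.45 and 10.03 with the inhibitor and 1.76, 2.62 and 0.526 with DMSO, at a log2 fold change of 2.72 ± 0.59. The ROR receptors activate Arntl through the elements used by REV-ERB. Among their genes, Rora had 6.41, 5.42 and 6.59 with the inhibitor and 1.17, 1.24 and 0.783 with DMSO, at 2.53 ± 0.23. Rorb did not pass the filter, at −0.74 ± 0.25, with every inhibitor library below every DMSO library. Within a library the ratio of Rora to Nr1d1 ran from 0.630 to 1.07 with the inhibitor and from 0.280 to 0.967 with DMSO, with overlap.

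Nfil3, the repressor that competes with DBP at D-boxes, had a log2 fold change of −0.41 ± 0.20 and did not pass the filter. None of 6 kinase genes and none of the 6 tested genes of protein stability passed it in edgeR or DESeq2. At an unadjusted p-value under 0.05 in edgeR, 2 kinase genes were higher and 1 lower, and 1 gene of protein stability was higher, beside the 14.6% and 13.5% of all tested genes. Of 10 cofactor genes, Sirt1, a deacetylase that acts on clock proteins, passed with FPKM values of 0.722, 0.549 and 0.570 with the inhibitor and 0.204, 0.0924 and 0.172 with DMSO, at 1.98 ± 0.58. Those levels rest on 240 to 264 counts with the inhibitor and 29 to 60 with DMSO. Sirt1 passed in 4 of 13 alternatives. It did not pass when any of the 6 libraries was left out, at log2 fold changes of 1.70 to 2.21, nor with the block, at 2.04. It also failed with a minimum of 1 count in any library. In limma on log2(FPKM + 1) without an FPKM minimum it failed at a log2 fold change of 0.48.

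**Figure D5:**
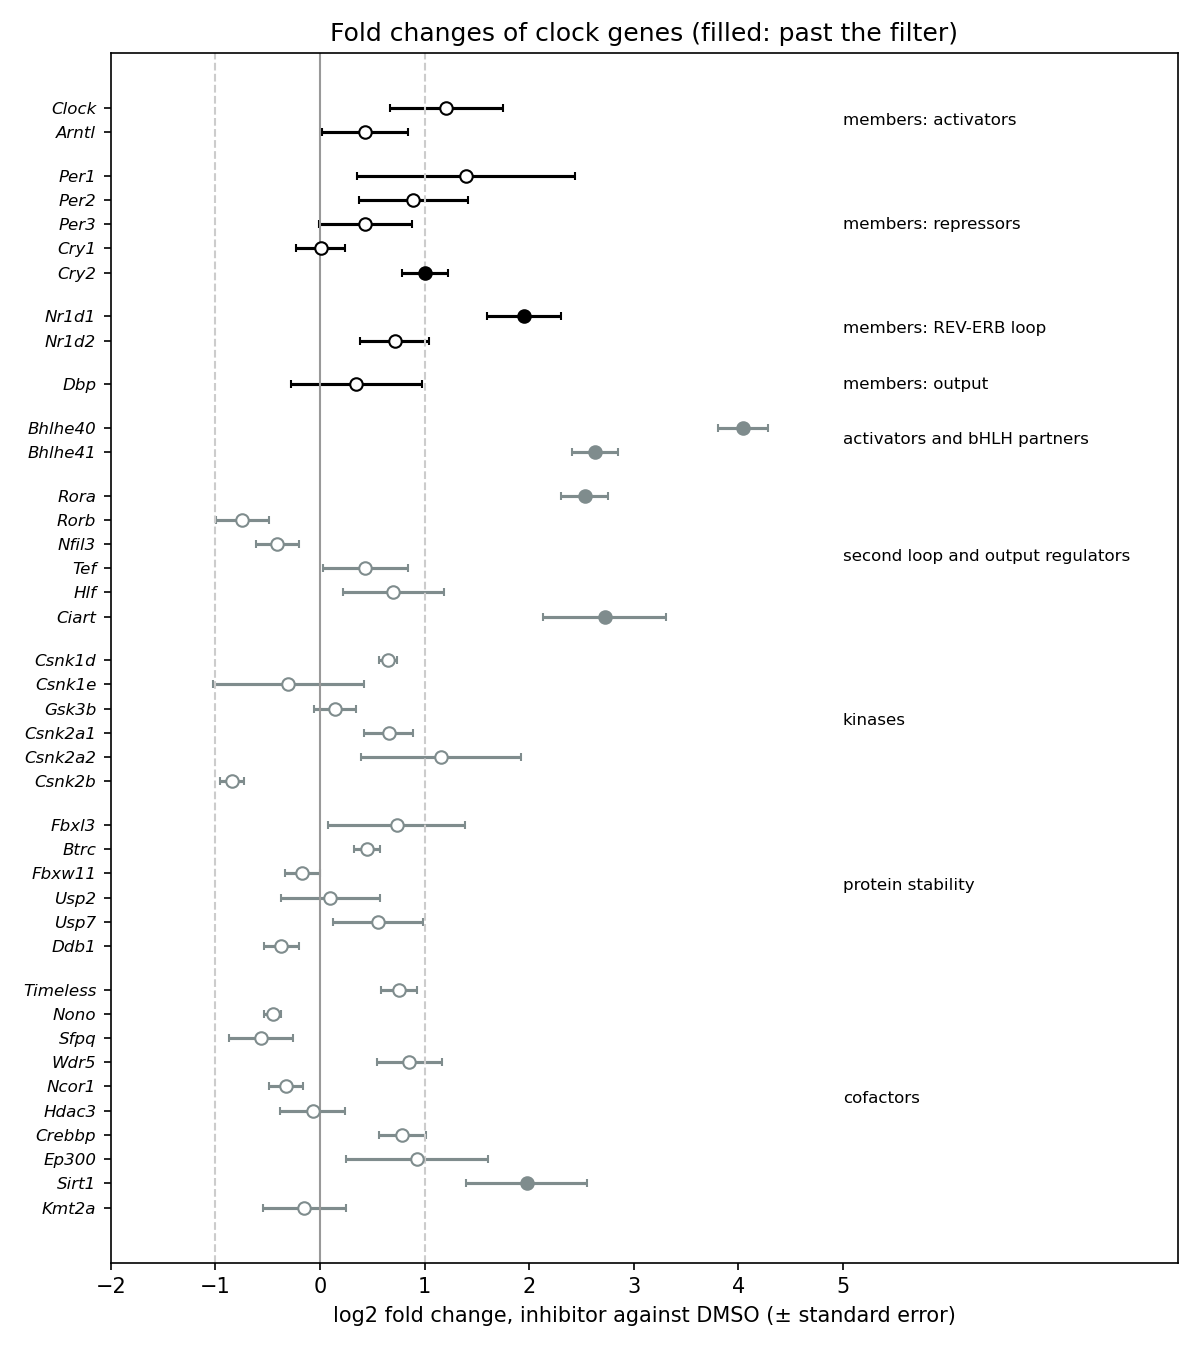
log2 fold change (inhibitor against DMSO) with its standard error for the 10 clock genes (black) and 30 other tested clock genes (grey), grouped by role. Filled points passed the filter, among them Nr1d1 and Cry2, and dashed lines mark log2 fold changes of −1 and 1.

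Genes known to follow the clock in many tissues were counted from a list of 16, of which 15 were tested. With higher levels 6 passed the filter: Bhlhe40, Bhlhe41, Ciart, Cdkn1a (a cell cycle inhibitor, 1.83 ± 0.14), Klf10 (1.61 ± 0.25) and Tsc22d3 (1.03 ± 0.23). With lower levels 1 passed, the glycogen synthase gene Gys2, at −1.45 ± 0.30. Without the genes that also stand in the list of other clock genes, Bhlhe40 among them, 3 of 9 passed with higher and 1 with lower levels, beside 6.25% and 4.16% of all tested genes. Tsc22d3 and Gys2 were named after their values had been seen. Tsc22d3 lay at the limit and did not pass without inhibitor B (0.92), DMSO A (0.97) or DMSO C (0.93).

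Genes of the oxygen response were the other link by which the clock genes had been picked. Of 20 listed, 14 were tested and 6 passed the filter, with higher levels, beside 6.25% of all tested genes. Since their rise led to the choice of the clock genes, this count restates that choice and adds no support. Among them Slc2a3, a glucose transporter, had a log2 fold change of 4.35 ± 0.38, Ankrd37 one of 3.91 ± 0.41, the mitophagy gene Bnip3 one of 3.74 ± 0.18 and the glucose transporter Slc2a1 one of 1.97 ± 0.19. Ldha, a glycolytic gene that nearly every cell uses, was listed at 0 in all 6 libraries. A listed 0 may therefore not mean that a gene is silent, and levels compared between genes carry the same doubt.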

How the data were processed

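RNA from 6 αTC1 libraries, described as low-input samples, was prepared with Smart-seq2, which copies polyadenylated RNA without regard to strand. The authors aligned reads to GRCm38 (mm10) with STAR 2.7.9a, per the submitters' processing notes. The authors counted alignments on basic Ensembl transcripts irrespective of strand, in the Union mode of summarizeOverlaps. They deposited whole-number counts summed per gene, without normalization. How reads on exons shared between genes were assigned was not examined. The authors also deposited FPKM values, whose computation is not given in the sources used here.

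Groups came from the labels. The treatment was taken to be the inhibitor for which the study describes sequencing. Which replicate number of the labels belongs to which column letter was not clear. For its cell culture experiments in general, the study states that 1 batch of cells was split between the treatments of a replicate and that these were handled together. Whether replicates came from separate batches is not given, so p-values and standard errors measure only the spread between these libraries, which may be technical. No libraries within a group agreed within sampling noise (chi-square per degree of freedom 71.6 to 147).

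Counts were fitted over the whole table in R 4.3.3 with edgeR 4.0.16: filterByExpr (minimum count 10, minimum total 15), TMM factors, quasi-likelihood test, Benjamini-Hochberg adjustment. All 10 clock genes passed the low-count filter. Standard errors were taken as |log2 fold change| over √F. An exact permutation test of 3 against 3 cannot go below 0.1 and was not used. The script was tested on simulated data. Each library held 59070705 counts or more, but some genes, such as Per1, had few. The error from counting was not told apart from the other spread between libraries. Exon overlaps and positions were taken from GENCODE vM21, copies of at least 100 bases and 95% identity from blastn 2.17.0, and promoters from the RefSeq table. Figures were drawn with Python 3.11.15 and matplotlib 3.10.9.

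The members and gene lists were chosen with earlier results of these data known. Genes named by rule are the 10 members, other clock genes past the filter and 8 fixed partners. Each further list adds up to 4 genes with the smallest p-value past the filter. Genes that overlap members, Smndc1 and markers are named too. Arntl2, Ldha, Gm5827, Tsc22d3 and Gys2 were named outside this rule. The alternatives were RLE factors, library totals, other count minimums, DESeq2 1.42.0, limma 3.58.1 on log2(FPKM + 1) or log2(FPKM + 0.1), a column-letter block, each library left out and another call rule. A comparison of protein sequences was not run. Some genes first listed are not reported here, for a reason unrelated to their values, and were left out of the counts of other clock genes and α cell markers.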

Additional observations from a re-analysis of the deposited data

How the results depend on the processing

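The count of clock genes past the filter was 2 with RLE factors, library totals, both other count minimums, DESeq2, limma on log2(FPKM + 0.1), the block and an adjusted p-value under 0.05 alone. It was 1, Nr1d1, in limma on log2(FPKM + 1) with an FPKM minimum of 1 (where 7 members were tested) and without one (10 members), where Cry2 had a log2 fold change of 0.93. With each library left out it ranged from 1 to 2, being 1 without inhibitor A, inhibitor C, DMSO A or DMSO C. The adjusted p-value of Cry2 in these alternatives was at most 0.0919, so its size decided the call. At least 10 counts in every library left 9 members, without Per1. Counts over all genes were 1571 as reported, 2518 with DESeq2 (1498 higher, 1020 lower) and 1298 to 1464 with a library left out. With an adjusted p-value under 0.05 and no fold limit, 2230 passed, and more were lower (1177) than higher (1053). Library totals gave 1796, with 1404 higher and 392 lower against 943 and 628, and moved the median log2 fold change of all genes from 0.04 to 0.25. Libraries that share a column letter had correlations of 0.0151, 0.00274 and 0.0251 in their deviations, all close to 0. Other pairs of letters ran from −0.0272 to 0.0121. Each inhibitor library correlated best with the DMSO library of its own letter, while DMSO B correlated best with inhibitor A. The study handled the treatments of a replicate together, but the sources do not tie letters to replicates. Whether the letters pair the libraries was therefore not settled, and the block is given as an alternative. The replicate block by letter gave 1237 genes, 2 clock genes and 4 other clock genes (without Sirt1), and left the counts of the other lists as they were. Of the other clock genes, 8 (6 higher, 2 lower) had an adjusted p-value under 0.05 against 5 past the filter. Over all tested genes the shares were 14.8% and 10.4%. Acute inducers of Per genes gave 7 with DESeq2, 4 higher and 3 lower, against 5 with 2 higher and 3 lower. The cause of these shifts was not tested. Per1 had 6 counts in DMSO C and 140 in DMSO A, at library totals of 59070705 and 64926602. The study describes its samples as low-input, and the source of this spread was not tested.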

Other observations

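Genes that respond to cAMP, serum or glucocorticoids, signals that acutely induce Per1 and Per2 in many cells, were found among both the higher and the lower genes. Of 14 listed, 12 were tested and 5 passed the filter, 2 higher and 3 lower, beside 10.4% of all tested genes. DESeq2 gave 4 higher and 3 lower, beside 1498 higher and 1020 lower among all 16373 genes it tested. The groups did not overlap for 6 genes with the inhibitor above and 4 with it below, beside 18.1% and 18.6% of all tested genes. The higher ones were Junb, an immediate early gene, at a log2 fold change of 2.07 ± 0.30 (SE, n = 3 per group), and Tsc22d3, a glucocorticoid target, at 1.03 ± 0.23, the latter named after its value had been seen. The lower ones were Crem, a cAMP-responsive repressor, at −2.18 ± 0.36, Nr4a2, an early-response nuclear receptor, at −1.39 ± 0.23, and Sgk1, a kinase induced by glucocorticoids, at −1.06 ± 0.18. Sgk1 did not pass without inhibitor C (−0.89) or with library totals (−0.86), nor did Tsc22d3 without inhibitor B, DMSO A or DMSO C. Crem had FPKM values of 0.988, 2.56 and 1.76 with the inhibitor and 9.58, 7.26 and 7.28 with DMSO, without overlap. Per1 and Per2 overlapped between the groups, as given above.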
